A study of Mus musculus with 8 samples.

Results

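Before a cell divides, it copies its DNA in S phase. Origins are licensed when the origin recognition complex, Cdc6 and Cdt1 load the ring-shaped MCM helicase. The ring is switched on by Cdc45 and GINS, and polymerases then copy the strands behind it, held to the DNA by the sliding clamp PCNA. Most of these genes are transcribed as cells leave G1, under the E2F transcription factors, so their mRNA is widely used as a sign of cycling cells. Most splenic dendritic cells (DCs) are short-lived and are replaced by precursors from the bone marrow, but part of the conventional DC population still divides within the spleen.

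The measurements describe 41 genes of S phase and DNA replication, chosen by name from a table of 13786 protein-coding genes; all 41 were in the table. RNA was sequenced from spleen cells selected on CD11c, the integrin chain encoded by Itgax, in 4 C57BL/6 mice, the controls, and 4 B6.SLE123 mice. All were females aged 7 weeks. B6.SLE123 mice carry the lupus susceptibility intervals Sle1, Sle2 and Sle3 on a C57BL/6 background, and at this age they do not yet have overt disease. The selection on CD11c can also retain macrophages, B cells and other leukocytes. The deposited counts summed to between 25563070 and 37367094 per mouse. They are given here as CPM, counts scaled for library size, after adjustment between libraries by the trimmed mean of M values (TMM), and fold changes are B6.SLE123 over C57BL/6, so that a positive log2 value is higher expression in the lupus-prone strain. The strains were compared with edgeR's quasi-likelihood test across all 13786 genes, and adjusted p is its Benjamini-Hochberg value. Each mouse was a separate sample, and every pair of mice within a strain differed by more than counting noise.

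DC genes were abundant in every library. The DC growth factor receptor Flt3 was at 431 to 481 CPM in C57BL/6 mice and 596 to 626 CPM in B6.SLE123 mice, and Itgax itself was at 1219 CPM or more in all 8 mice. All 5 genes of a conventional DC list (Itgax, Flt3, Zbtb46, H2-Ab1 and Cd74) rose at an adjusted p below 0.05, as 26.7% of all genes did. The median rise of the list was 0.28 on the log2 scale. The libraries also held red pulp macrophage RNA, in unequal amounts. The 8 genes of that list, which include Vcam1, Hmox1 and Csf1r, summed to between 9787 and 12340 CPM in C57BL/6 mice and to between 1389 and 2733 CPM in B6.SLE123 mice. These differences stand beside every result that follows.

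The 41 replication genes were higher in B6.SLE123 mice almost without exception. They were chosen with earlier results of these data known, so their counts describe this list and not replication genes in general. Of the 41 genes, 40 rose and 0 fell at an adjusted p below 0.05, where 53.4% of all genes tested changed, 26.7% upwards and 26.6% downwards. By edgeR none fell at an unadjusted p below 0.05 either, and 0 fell by DESeq2 or limma-voom. The median log2 fold change was 0.86 over the 41 genes and -0.002 over all genes. Most rises were moderate, and 9 genes were more than 2-fold higher (Mcm2, Mcm5, Mcm10, Orc1, Cdc6, Pole, Rrm2, Uhrf1 and Clspn), against 2.76% of all genes; 8.29% of all genes were more than 2-fold lower. This count depends on the mice included. It was 15 without B6.SLE123 replicate 4. For 40 of the 41 genes every B6.SLE123 mouse was above every C57BL/6 mouse, which was true of 24.4% of all genes. The reverse order held for 24.5%, so 48.9% of all genes did not overlap. The exception in both counts was Tk1. In RNA from a whole preparation, a larger share of cells in S phase and more of these transcripts in each such cell cannot be told apart.

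**Figure D1:**
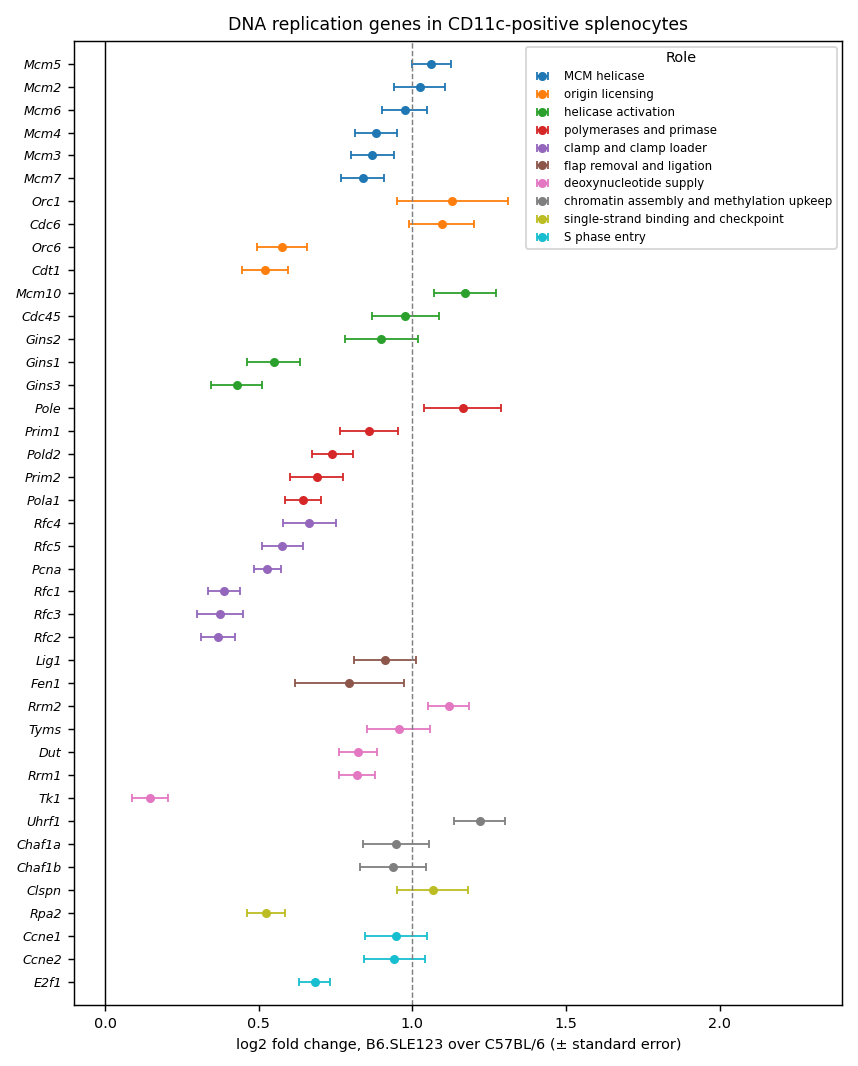
Log2 fold change (x axis, B6.SLE123 over C57BL/6, 4 mice each) of each replication gene (y axis), with the standard error (SE) of the edgeR fit as bars and colour for role. The dashed line marks a 2-fold rise. The values run from 0.15 for Tk1 to 1.22 for Uhrf1, and the clamp and clamp loader genes form the lowest group.

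The MCM helicase unwinds DNA ahead of the fork and is a ring of 6 related subunits, Mcm2 to Mcm7. All 6 rose, within a narrow range of log2 fold changes from 0.84 to 1.06. Mcm5 was at 79.1, 82.1, 73.9 and 76.9 CPM in the C57BL/6 mice and at 171, 177, 156 and 146 CPM in the B6.SLE123 mice. The lowest B6.SLE123 mouse was thus far above the highest C57BL/6 mouse, and the log2 fold change was 1.06 (SE 0.06, adjusted p = 5.17e-07 by edgeR). Mcm2 was at 60.5, 63.8, 58.3 and 51.8 CPM against 125, 134, 108 and 108 CPM, a log2 fold change of 1.02 (SE 0.08). Mcm6 went from 85.7 ± 5.64 to 168 ± 16.6 CPM (SD, n = 4), Mcm3 from 84.2 ± 4.19 to 154 ± 15.4 CPM, Mcm4 from 62.9 ± 3.07 to 116 ± 11.2 CPM and Mcm7 from 77.3 ± 3.09 to 138 ± 14.1 CPM. In each case the gap between the strains was several times the spread within either. Mcm7 shares exon bases with Cops6 and Ap4m1 on the other strand, and hosts microRNA genes.

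The promoters of these genes are shown because members that move together may share sequence, and because the letters do not depend on the counts. RefSeq (GRCm38.p6) gave a window of 250 bases before to 50 after the transcription start for 34 of the 41 genes. The E2F consensus was searched on both strands as TTTCCCGC, TTTGGCGC, TTTCGCGC and TTTGCCGC. A match was present for 13 of the 34 genes, which is 38.2%, compared with 2.6% of the 27025 genes with such a window and 4.56% of those in the count table. Matches were found for Mcm3, Mcm5, Mcm6, Mcm7, Orc1, Cdc6, Cdt1, Gins3, Pola1, Rfc3, Lig1, Uhrf1 and Clspn. The stretches of 60 bases below hold the first match before the start of 5 of these genes, with the matched letters in capitals and the strand of the gene read 5′ to 3′. They are upstream of the RefSeq start and touch no exon of GENCODE M21, although those of Cdc6 and Uhrf1 lie in an intron of a longer transcript. The capitals of Mcm5 and Mcm6 are each a pair of matches on opposite strands that overlap.
Mcm5, chr8:75109330-75109389, plus strand: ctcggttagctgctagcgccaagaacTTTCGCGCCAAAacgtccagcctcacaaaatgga
Mcm6, chr1:128359782-128359841, minus strand: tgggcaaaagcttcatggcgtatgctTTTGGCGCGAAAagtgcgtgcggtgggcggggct
Cdc6, chr11:98907987-98908046, plus strand: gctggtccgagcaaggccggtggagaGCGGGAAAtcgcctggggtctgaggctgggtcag
Uhrf1, chr17:56304102-56304161, plus strand: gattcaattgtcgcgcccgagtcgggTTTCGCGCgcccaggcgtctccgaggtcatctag
Pola1, chrX:93632260-93632319, minus strand: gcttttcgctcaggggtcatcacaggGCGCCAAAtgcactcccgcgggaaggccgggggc
The 13 genes with a match were at a median log2 fold change of 0.91, the 21 without one at 0.82, and their ranges overlapped, from 0.37 to 1.22 and from 0.15 to 1.17. A CCAAT box, the binding letters of NF-Y, was in the window of 22 of the 34 genes (64.7%), in 41.1% of all windows and in 42.8% of those in the count table. The share was 62.5% for the repair genes outside the fork and 87.5% for mitosis genes, so it was not highest for the replication genes. An E2F match was present for 31.8% of the 44 other replication genes with a window and for 6.25% of repair genes and of mitosis genes. The cell cycle homology region of mitotic genes, TTTGAA, was in 5 of 34 (14.7%), close to the 14.8% of genes in the count table and below the 20.2% of all windows, and in 11 of 16 mitosis genes (68.8%). Neither of these motifs can lie inside an E2F match. A match is only a run of letters and was not tested for binding.

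Licensing factors load the helicase in G1. Orc1, the subunit of the origin recognition complex that comes and goes with the cell cycle, was at 1.36, 2.38, 2.23 and 2.22 CPM in C57BL/6 mice and 3.58, 4.60, 4.76 and 5.08 CPM in B6.SLE123 mice. The strains did not overlap, although C57BL/6 replicate 1 lay below the other controls, and the log2 fold change of 1.13 had a wide SE of 0.18. Cdc6, an ATPase that joins the complex at the origin, was at 10.3, 11.2, 8.36 and 11.1 CPM against 21.7, 24.9, 21.7 and 18.9 CPM (log2 fold change 1.10, standard error 0.11). Cdt1, which brings in the MCM ring, and Orc6 changed less, by 0.52 and 0.58 on the log2 scale. Orc1 and Orc6 share exon bases with genes on the other strand.

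Helicase activation gave the same direction with more scatter between genes. Mcm10, needed to start the loaded helicase, went from 11.8 ± 0.46 to 26.6 ± 3.98 CPM (SD, n = 4), a log2 fold change of 1.17 (SE 0.10). Cdc45, which joins MCM and GINS in the active helicase, was at 10.7, 11.0, 9.76 and 11.2 CPM in C57BL/6 mice and 22.3, 25.1, 18.9 and 17.6 CPM in B6.SLE123 mice. The controls were close together and the B6.SLE123 mice more spread, and the rise was 0.98 on the log2 scale. The GINS subunits were spread out, with Gins2 at 0.90, Gins1 at 0.55 and Gins3 at 0.43. Gins2 shares most of its exon bases with Gse1 on the other strand, and Cdc45 shares some with Ufd1.

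The enzymes that copy DNA also rose. Pole, the catalytic subunit of the leading strand polymerase, was at 25.5, 30.6, 20.8 and 21.4 CPM in C57BL/6 mice and 57.1, 62.2, 54.1 and 45.8 CPM in B6.SLE123 mice. Its rise of 1.16 on the log2 scale was the steepest of this group. Prim1 and Prim2, the primase that lays down RNA primers, rose by 0.86 and 0.69, Pold2, an accessory subunit of the lagging strand polymerase, by 0.74, and Pola1, the polymerase that extends the primers, by 0.64 (adjusted p = 6.17e-06 by edgeR). Lig1, which seals the lagging strand fragments, went from 40.9 ± 2.46 to 76.8 ± 12.2 CPM (SD, n = 4). Fen1, the nuclease that trims them, was at only 2.46 ± 0.54 CPM against 4.27 ± 0.66 CPM, and most of its exon bases are shared with an antisense gene. Pole and Lig1 also share exon bases with genes on the other strand.

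The sliding clamp and its loader rose least among the groups. Pcna, the clamp, was abundant and even between mice, at 114, 120, 116 and 118 CPM in C57BL/6 mice and 169, 180, 165 and 161 CPM in B6.SLE123 mice. The mice of each strain lay close together, so that a log2 fold change of only 0.53 had an SE of 0.04 (adjusted p = 3.09e-06 by edgeR). The 5 subunits of replication factor C, which opens the clamp and places it on DNA, rose by 0.66 for Rfc4, 0.58 for Rfc5, 0.39 for Rfc1 and 0.37 for both Rfc2 and Rfc3. The group had a median of 0.46, and none of its 6 genes was 2-fold higher. Within each mouse, the log2 ratio of Mcm5 to Pcna was -0.59 ± 0.06 in C57BL/6 mice and -0.06 ± 0.07 in B6.SLE123 mice (SD, n = 4). This is a description without a test result, since the pair was chosen after the values were seen. Rfc2, Rfc4 and Rfc5 share exon bases with neighbours on the other strand, and Pcna has annotated pseudogenes.

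Of the 5 genes that supply deoxynucleotides, 4 rose. Rrm2, the small subunit of ribonucleotide reductase and the one that is made in S phase, was at 41.4, 46.0, 43.4 and 43.4 CPM in C57BL/6 mice and 96.2, 103, 95.5 and 82.5 CPM in B6.SLE123 mice. This was a log2 fold change of 1.12 (SE 0.07, adjusted p = 5.17e-07 by edgeR). Rrm1, the large subunit, rose less, by 0.82. The log2 ratio of Rrm2 to Rrm1 differed by 0.30 between the strains, again a pair chosen after the values were seen. Tyms, which makes thymidylate from deoxyuridylate, went from 15.2 ± 1.53 to 29.5 ± 3.96 CPM (SD, n = 4), and Dut, which keeps uracil out of DNA by breaking down dUTP, rose by 0.82.

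Tk1, the thymidine kinase of the salvage route and like the others a gene of S phase, stood apart. It was at 54.2, 60.7, 54.2 and 51.1 CPM in C57BL/6 mice and at 59.6, 64.5, 61.3 and 57.9 CPM in B6.SLE123 mice. The strains overlapped, since C57BL/6 replicate 2 was above 2 of the B6.SLE123 mice. The log2 fold change was 0.15 (SE 0.06) and the adjusted p by edgeR was 0.0531. This lies at the threshold: the adjusted p was 0.0453 with limma-voom, 0.0207 with the replicate number as a block and 0.0108 without C57BL/6 replicate 2, and was 0.168 without C57BL/6 replicate 4. Within each mouse, the log2 ratio of Tk1 to Tyms was 1.85 ± 0.09 in C57BL/6 mice and 1.05 ± 0.14 in B6.SLE123 mice (SD, n = 4). This restates the smaller change of Tk1 and is given without a test result, because the pair was chosen for it. Outside the 41 genes, the salvage kinase Dck rose by 0.25, and Rrm2b, the other small subunit of the reductase, had a log2 fold change of -0.10 that did not pass the test. Tk1 shares 83 exon bases with Afmid on the other strand.

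Genes that restore chromatin behind the fork were among the highest. Uhrf1, which reads hemimethylated DNA and recruits the maintenance methyltransferase, was at 64.9, 71.7, 58.9 and 62.1 CPM in C57BL/6 mice and at 150, 169, 151 and 129 CPM in B6.SLE123 mice. Its log2 fold change of 1.22 was the largest of the 41 (SE 0.08, adjusted p = 9.73e-07 by edgeR). Chaf1a and Chaf1b, subunits of the factor that deposits new histones, rose by 0.95 and 0.94. Their log2 ratio within a mouse was 1.28 ± 0.13 in C57BL/6 mice and 1.29 ± 0.10 in B6.SLE123 mice (SD, n = 4), with overlapping values. Chaf1a and Ubxn6, which run in opposite directions, share 4648 exon bases, and the Chaf1a count is uncertain for that reason.

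Clspn, which passes the signal of stalled forks to the checkpoint kinase, rose from 18.5 ± 1.74 to 38.5 ± 6.65 CPM (SD, n = 4). Rpa2, a subunit of the protein that coats single-stranded DNA, changed less, by 0.52. Upstream of all of these, Ccne1 and Ccne2, the E-type cyclins that drive entry into S phase, rose by 0.95 and 0.94. Ccne2 was at 7.38, 9.14, 7.69 and 7.48 CPM in C57BL/6 mice and 15.8, 15.9, 16.2 and 12.8 CPM in B6.SLE123 mice, and Ccne1 went from 6.17 ± 0.10 to 11.9 ± 1.59 CPM. Neither overlapped between the strains. E2f1, an activator of this gene programme and itself one of its targets, went from 28.2 ± 0.97 to 45.3 ± 2.20 CPM, a log2 fold change of 0.68 (adjusted p = 1.58e-06 by edgeR). Ccne2 shares exon bases with Ints8 on the other strand.

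**Figure D2:**
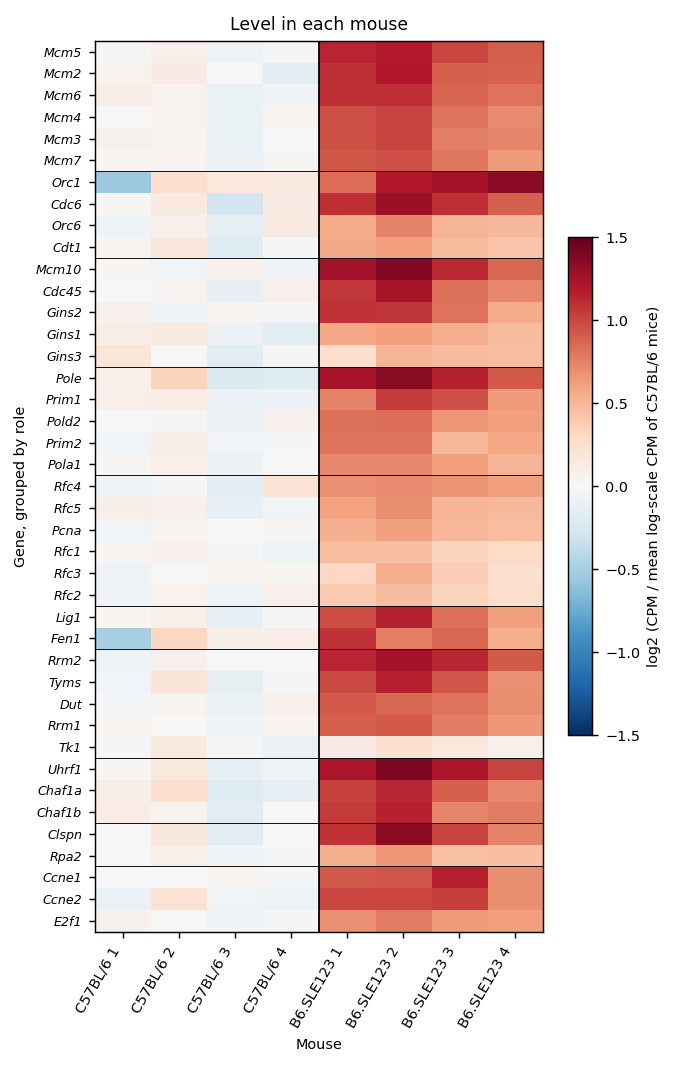
Level of each replication gene (rows, grouped by role) in each mouse (columns), as the log2 ratio of its CPM to the mean of the C57BL/6 mice on the log scale; red is higher and blue is lower. All 4 B6.SLE123 columns are red for nearly every gene, most strongly in replicate 2 and least in replicate 4, and the Tk1 row is pale throughout.

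The genes moved together from mouse to mouse as well. The mean log2 CPM over the 41 genes was 4.49, 4.58, 4.41 and 4.49 in the C57BL/6 mice and 5.33, 5.42, 5.26 and 5.14 in the B6.SLE123 mice, a difference of 0.79. The groups were separate, and the B6.SLE123 mice were spread more widely (SD 0.12 against 0.07). Among B6.SLE123 mice, replicate 2 was the highest for 34 of the 41 genes and replicate 4 the lowest for 36. Among C57BL/6 mice, replicate 2 was the highest for 24 genes and replicate 3 the lowest for 28. These mice also marked the ends of the macrophage signal, in the opposite order. The 8 red pulp macrophage genes summed to 1389 CPM in B6.SLE123 replicate 2 and to 2733 CPM in replicate 4, the lowest and the highest of that strain. They summed to 9787 CPM in C57BL/6 replicate 2 and 12340 CPM in replicate 3, again the lowest and the highest. Depth did not follow a single order, because the deepest B6.SLE123 library (37367094 counts, replicate 2) was high in replication genes and the deepest C57BL/6 library (32931045 counts, replicate 3) was low. The part of the macrophage signal in the replication genes was not tested.

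The B6.SLE123 intervals Sle1, Sle2 and Sle3 lie on chromosomes 1, 4 and 7. Of the 41 genes, 10 are on these chromosomes (Mcm3, Mcm6, Prim2, Orc1, Rpa2, Clspn, Ccne2, Lig1, Rrm1 and Ccne1). Their log2 fold changes ran from 0.52 to 1.13 around a median of 0.93. The 31 genes on other chromosomes had a median of 0.82 and a range from 0.15 to 1.22. The ranges overlapped almost fully, and 30 of the 31 genes away from these chromosomes rose. Whole chromosomes were compared and the bounds of the intervals were not used, so genes among the 10 may lie outside them.

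Partners of these genes in the same complexes changed less. A list of 54 other replication genes, all in the table, held 42 that rose and 0 that fell by edgeR, and 0 fell by DESeq2, by limma-voom or at an unadjusted p below 0.05 in edgeR. Of all genes, 26.7% rose and 26.6% fell by edgeR. The median log2 fold change of the 54 genes was 0.40, and 4 were more than 2-fold higher, against 2.76% of all genes. The difference was clearest in the origin recognition complex. Orc2 rose by 0.35, while Orc3 was at 53.7, 53.7, 53.1 and 51.3 CPM in C57BL/6 mice and 51.7, 55.1, 53.6 and 55.8 CPM in B6.SLE123 mice, with overlapping values. Orc4 and Orc5 did not pass the test either, with log2 fold changes of 0.06 and -0.14 (adjusted p = 0.313 and 0.0951 by edgeR). Outside that complex, Gins4 rose by 0.21 next to 0.43 to 0.90 for the other GINS subunits, Pola2 by 0.21 next to 0.64 for Pola1, Pold1 by 0.25 next to 0.74 for Pold2, and Pole2 by 0.45 next to 1.16 for Pole.

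The same differences can be read as ratios within each mouse. These are given as descriptions without test results, because the 12 pairs were chosen after the values were seen. The log2 ratio of Pola1 to Pola2 was -0.33 ± 0.05 in C57BL/6 mice and 0.11 ± 0.09 in B6.SLE123 mice (SD, n = 4). The shift was 0.81 for Orc1 against Orc2, 0.71 for Orc6 against Orc5, 0.67 for Gins2 against Gins4, 0.72 for Pole against Pole2 and 0.49 for Pold2 against Pold1. The ratio of Rpa2 to Rpa1 shifted by only 0.02, and that of Ccne1 to Ccne2 by -0.002. The 41 genes had been chosen with results of these data known, so a difference from their partners is a description. Other regulators of origins rose, among them the kinase Cdc7 by 0.64, its activator Dbf4 by 0.48 and Gmnn, the inhibitor of Cdt1, by 0.66. The maintenance methyltransferase Dnmt1 rose by 0.71 and the chromatin remodeller Hells by 0.94. Rpa1 and Rpa3 rose by 0.50 and 0.41.

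**Figure D3:**
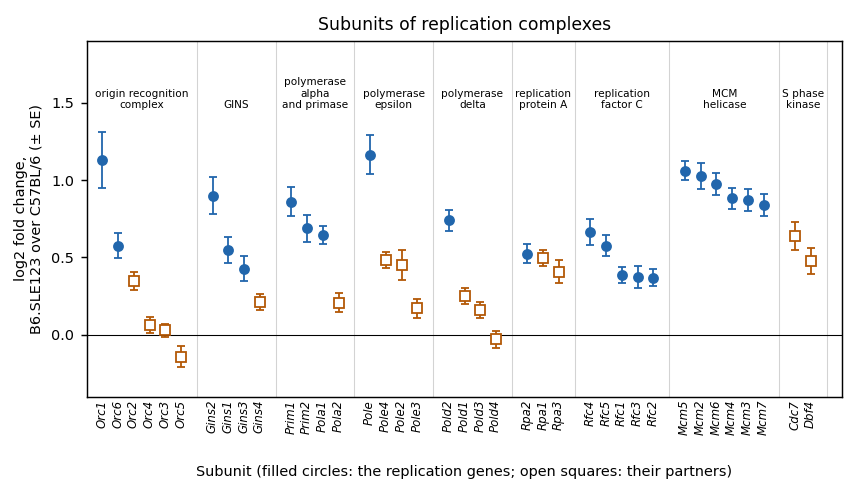
Log2 fold change (y axis, with the standard error (SE) of the edgeR fit; 4 mice a strain) of the subunits of replication complexes and of the S phase kinase (x axis). Filled circles are among the 41 genes and open squares are their partners; Orc3, Orc4 and Orc5 lie near 0 while Orc1 is at 1.13, and the 6 MCM subunits lie close together.

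Genes of the later cell cycle moved with the replication genes. All 20 genes of a mitosis list rose, and the median log2 fold change of the list was 0.99. Of all genes, 26.7% rose and 26.6% fell, and the counts in this paragraph stand against these shares. Mki67, the proliferation antigen, was at 197, 215, 186 and 188 CPM in C57BL/6 mice and 501, 528, 481 and 401 CPM in B6.SLE123 mice. Top2a, which untangles replicated chromosomes, rose by 1.10. Here too B6.SLE123 replicate 2 was the highest mouse and replicate 4 the lowest for both genes. Regulators of G1 were more mixed. Of 24 genes, 14 rose and 4 fell, with a median of 0.26. The inhibitors Cdkn1b and Cdkn2c fell by 0.30 and 0.48, whereas the inhibitors Cdkn1a and Cdkn2d rose by 0.47 and 0.38. Of the repressors made in S phase, E2f7 rose by 0.91 and E2f8 rose from 18.9 to 37.6 CPM on average. Among D-type cyclins, Ccnd3 rose by 0.29 and Ccnd2 fell by 0.50, and Ccnd1 had a log2 fold change of 0.28 that did not pass the test (adjusted p = 0.0737 by edgeR). DNA repair genes outside the fork, a list of 20, held 8 that rose and 3 that fell, with a median of 0.11, a share of changed genes near the 53.4% of all genes.

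Lists of cell type markers are given beside these values, and their counts stand against 26.7% of all genes that rose and 26.6% that fell. Type 1 conventional DC genes rose for 5 of 7, among them Xcr1 by 1.23 and Clec9a by 0.82, and 1 fell (Batf3). Their mean log2 CPM was 8.06, 7.77, 8.02 and 7.91 in the C57BL/6 mice and 8.54, 8.76, 8.47 and 8.21 in the B6.SLE123 mice. B6.SLE123 replicates 2 and 4 were at the ends, as for the replication genes, but C57BL/6 replicate 2, the highest control for replication genes, was the lowest here. Of 6 type 2 conventional DC genes, 3 fell (Sirpa by 0.91, Cd209a by 0.66 and Itgam by 0.30) and 0 rose. The other 3 did not pass the test, with log2 fold changes of 0.22 for Clec4a4, 0.07 for Irf4 and -0.40 for Clec10a. The share that changed in either direction was near the 53.4% of all genes, but every change was a fall. Of 9 erythroid precursor genes in the table, 8 fell, and they summed to between 74.3 and 246 CPM in C57BL/6 mice and between 8.73 and 37.6 CPM in B6.SLE123 mice. B cell genes fell for 6 of 7, with a median of -0.61. Some genes of later B cell stages rose, namely Gcsam by 1.05 and Mef2b by 1.46 among those of germinal centres, while Bcl6, S1pr2 and Rgs13 did not pass the test. Of 6 plasma cell genes, Jchain rose by 1.10 and Mzb1 by 1.06, Prdm1 and Xbp1 fell by 1.31 and 0.39, and 2 did not pass. Of 5 stem and progenitor genes, 3 rose (Kit by 0.49, Cd34 by 0.77 and Myb by 0.29) and Meis1 fell by 0.29. Gata2, which did not pass the test and is a defining factor, was at 0.20 and 0.16 CPM on average. The part of each of these cell types in the rise of the replication genes was not tested.

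**Figure D4:**
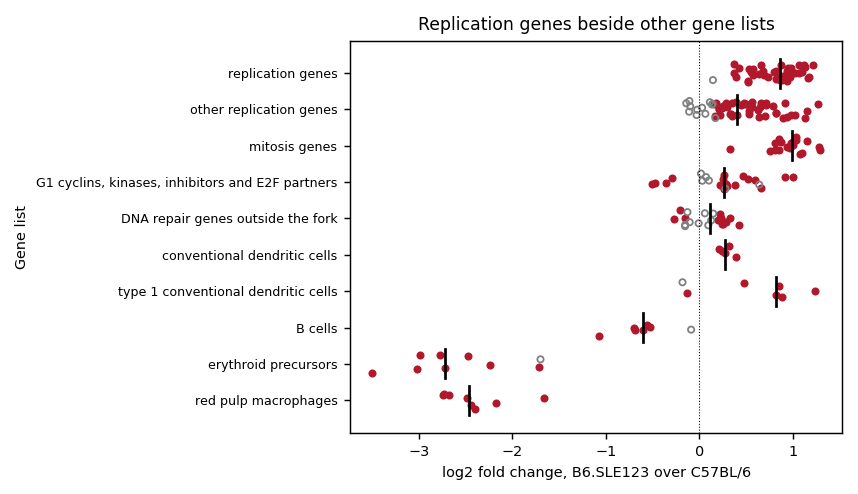
Log2 fold change (x axis) of every gene in the table from each list (y axis). Filled red points had an adjusted p below 0.05 by edgeR, open grey points did not, and black bars are medians: 0.86 for the 41 replication genes, 0.40 for their partners, 0.99 for mitosis genes, 0.11 for repair genes outside the fork and -2.47 for red pulp macrophages.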

How the data were processed

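Spleen cells positive for CD11c, from 4 mice of each strain, were sequenced as mRNA. The authors used FastQC and cutadapt on the reads, STAR for alignment (mm10) and featureCounts for the counts per gene. Versions are not given in the sources used here. The deposited table holds these raw counts for protein-coding genes, each with a median of at least 5 counts in at least one strain. The strand setting of the counting is not given in the sources used here, although the labels name a stranded kit, so reads of the 14 genes that share exon bases with another gene are uncertain. The other value columns, the authors' DESeq2 comparison, were not used. Strains were taken from sample titles, because the strain number in the genotype field rises from mouse to mouse.

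Counts were scaled by TMM and compared with edgeR 4.0.16 (R 4.3.3) over 13786 genes with no further filter; log2 CPM used a prior count of 2. The code was tested on simulated data. Alternatives were relative log expression factors, at least 10 counts in every sample, DESeq2 1.42.0, limma-voom (limma 3.58.1), the replicate number as a block, an adjusted p below 0.01, a prior count of 0.5, and each mouse left out. Ratios between genes within a mouse are given without test results. A permutation test of the 12 pairs was run but is not used, since the pairs were chosen after the values were seen. All 41 members were named, with partners and regulators chosen by role; the members and lists were chosen with earlier results of these data known. Exon overlaps and pseudogenes come from GENCODE M21. P-values weigh the difference between the strains against the spread between mice of a strain. They do not cover anything shared by all mice of a strain. A few results on single genes and the lists that hold them are not reported here.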

Additional observations from a re-analysis of the deposited data

Results flagged for a closer look

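In 4 of 84 groups of 4 mice (41 genes and their mean, in each strain) the highest or lowest mouse lay apart from the others by Dixon's criterion, against 4.2 expected by chance. Mcm7, at 6.18 log2 CPM, was low in C57BL/6 replicate 3 (strain median 6.30). Orc1, at 0.51 log2 CPM, was low in C57BL/6 replicate 1 (strain median 1.19). Prim2, at 3.66 log2 CPM, was high in C57BL/6 replicate 2 (strain median 3.53). Ccne2, at 3.69 log2 CPM, was low in B6.SLE123 replicate 4 (strain median 3.99). All 4 genes were higher in B6.SLE123 mice in every alternative setting.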

How the results depend on the processing

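Directions of the 41 genes were the same in all 14 fits, and Tk1 was the only gene to cross the threshold. With each mouse left out in turn, the genes more than 2-fold higher numbered from 7 to 15, the highest without B6.SLE123 replicate 4, the genes that rose from 40 to 41, the other replication genes that rose from 39 to 42 and those that fell from 0 to 1 (Orc5, without C57BL/6 replicate 2). The median log2 fold change of the 41 genes was from 0.81 to 0.90 in these fits, that of the other replication genes from 0.37 to 0.46, the difference in mean log2 CPM from 0.75 to 0.84, and all genes changed from 6496 to 7013. The median of the neutrophil list, 0.62, turned to -0.25 under the minimum of 10 counts and to -0.22 with limma-voom. It ran from -0.26 (without B6.SLE123 replicate 1) to 1.05 with a mouse left out. Its 7 genes in the table, of which 3 rose and 1 fell, summed to between 3.99 and 14.4 CPM in B6.SLE123 mice. The minimum of 10 counts takes low genes such as Mpo and Camp out of this list, and the cause of the other shifts was not tested. Deviations of same-numbered mice correlated over genes at 0.02, 0.07, -0.03 and 0.12, and those of the other pairs ran from -0.10 to 0.09. These values gave no clear pairing by replicate number, but are too weak to exclude a batch shared by number. With the replicate block, 7183 genes changed against 7356, 41 of the 41 genes rose, and the median was 0.85. Genes under 5 counts in both strains are not in the table, so partners below that depth were not analysed here.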

Other observations

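Outside every list, the genes whose mouse-to-mouse deviations from the strain means were most like those of the 41 replication genes included a known gene of chromosome condensation. By Pearson's r over the 8 mice, given as a description, these were Ncapg, a condensin subunit (0.99, log2 fold change 1.18), Chrne (0.98, log2 fold change 0.15), Cdca2 (0.98, log2 fold change 1.04) and Wdr43 (0.97, log2 fold change 0.08). Ncapg and Cdca2 rose, and Chrne and Wdr43 did not pass the test (adjusted p = 0.749 and 0.164 by edgeR). The points share the scaling of each library, and 13786 genes were searched.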
